A study of Mus musculus with 16 samples.

Results

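The genes Prdm16 and Mecom, a pair of paralogues, were followed through 16 oocyte methylomes. Prdm16 was chosen by its gene-body methylation in 10-kb bins of these same libraries, which fell in steps from IFC to SO to the adult groups, and Mecom because it is its closest paralogue in the mouse. They are 2 of the 21755 protein-coding genes annotated on chromosomes 1 to 19 and X, and of the 5849 genes whose body held at least 100 methylation calls in every library. All females were C57BL/6J X CBA/Ca F1 hybrids, and all oocytes were collected at metaphase II with their polar bodies, pooled, and sequenced by post-bisulphite adapter tagging, in which DNA is converted with bisulphite before the adapters are attached. The groups were IFC (4 pools), oocytes matured in cultured follicles that had been taken as preantral follicles from prepubertal females and that matched an age of 23 days; SO (5 pools), oocytes of superovulated prepubertal females of 23 days; SOA (4 pools), oocytes of superovulated adults of 10 weeks; and IV (3 pools), oocytes ovulated naturally by adults of 10 weeks. Superovulation was induced with gonadotropins, so SO and SOA differ in the age of the female and, per the methods of the study, in the hormone dose, which cannot be told apart. IFC minus SO addressed follicle culture at matched age, SO minus SOA the sexual maturity of the female, and SOA minus IV superovulation in adults. Per the methods of the study, the cultured follicles received gonadotropins and a growth factor in the medium, and the SO females were injected with gonadotropins. IFC minus SO therefore also differs in hormone treatment, which cannot be told apart from culture. IFC minus SOA combines culture, hormone treatment and age.

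PRDM16 and MECOM (the product of the MDS1 and EVI1 complex locus) are zinc-finger transcription factors that carry an N-terminal PR domain and can take part in histone H3 lysine 9 methylation. PRDM16 is best known for driving brown fat identity and MECOM for maintaining blood stem cells, and both bind CtBP corepressors and SMAD3. In the growing oocyte, DNMT3A and its cofactor DNMT3L deposit methylation mainly across transcribed gene bodies, so that the finished genome alternates between hypermethylated domains and hypomethylated domains. The data here are DNA methylation only. No transcript was measured.

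Prdm16 lies on the minus strand of chromosome 4 (chr4:154316125-154636873, GRCm38, GENCODE M21) and Mecom on the minus strand of chromosome 3 (chr3:29951296-30548008). Mecom has a long form, which begins at position 30509733 and includes the PR domain, and a short form (Evi1), which begins at 30013156 and lacks it. The starts of these forms are CpG dense and are printed first because few calls in them were methylated. The 3 RefSeq promoter sequences (GRCm38.p6, the 250 bases before each start, 5′ to 3′ on the gene's strand, CpGs in capitals) cover chr4:154636874-154637123, chr3:30509760-30510009 and chr3:30013205-30013454. They hold 22, 14 and 8 CpGs, against a median of 6 over the 32851 RefSeq promoter sequences of the mouse.
Prdm16 promoter: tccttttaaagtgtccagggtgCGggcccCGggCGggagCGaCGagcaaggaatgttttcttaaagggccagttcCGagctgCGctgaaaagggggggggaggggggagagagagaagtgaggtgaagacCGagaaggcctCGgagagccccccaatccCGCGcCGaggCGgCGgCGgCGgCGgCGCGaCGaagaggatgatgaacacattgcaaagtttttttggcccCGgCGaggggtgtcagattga
Mecom long-form promoter: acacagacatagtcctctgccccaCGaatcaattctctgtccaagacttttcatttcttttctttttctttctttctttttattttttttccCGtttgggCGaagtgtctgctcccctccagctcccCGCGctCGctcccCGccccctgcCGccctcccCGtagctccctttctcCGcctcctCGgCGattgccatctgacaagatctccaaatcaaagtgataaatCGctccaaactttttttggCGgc
Mecom short-form promoter: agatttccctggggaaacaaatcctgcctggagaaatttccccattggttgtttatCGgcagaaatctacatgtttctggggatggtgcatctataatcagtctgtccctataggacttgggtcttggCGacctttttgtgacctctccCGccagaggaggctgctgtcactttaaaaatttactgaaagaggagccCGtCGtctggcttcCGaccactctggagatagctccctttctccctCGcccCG
In the RefSeq window of Prdm16, which runs 50 bases further into the transcript, 0 of 79 calls were methylated over all libraries. Of these calls 43 came from IV and 6 from IFC, and several libraries had none. A count of 0, taken as up to 3 calls, allows a share of up to 3.80%, and the upper 95% Wilson limit was 4.64%. The window of the Mecom long form had 1 methylated call of 161 (0.621%, 95% Wilson interval 0.110% to 3.43%), and that of the short form 3 of 98 (3.06%, 1.05% to 8.62%). These intervals cover counting error only. The longest stretch shared by a Prdm16 and a Mecom promoter window was 24 bases, in the first exon of Prdm16 (chr4:154636841-154636864) and at the start of the long form of Mecom (chr3:30509710-30509733). No other RefSeq promoter window held it on either strand, so it was in 2 of 32851 (0.00609%).
Stretch shared by Prdm16 and Mecom: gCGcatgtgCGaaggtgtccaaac

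Not every CpG-dense stretch of Prdm16 was low in methylation. A window of 300 bases in its large coding exon (chr4:154340803-154341102), shown to contrast with the promoter, holds 20 CpGs, nearly as many as the promoter. It was 94.7% methylated over all libraries (143 of 151 calls, 95% Wilson interval 89.9% to 97.3%). It is given 5′ to 3′ on the strand of Prdm16, from the GRCm38.p6 genome, with CpGs in capitals.
Prdm16 coding exon window: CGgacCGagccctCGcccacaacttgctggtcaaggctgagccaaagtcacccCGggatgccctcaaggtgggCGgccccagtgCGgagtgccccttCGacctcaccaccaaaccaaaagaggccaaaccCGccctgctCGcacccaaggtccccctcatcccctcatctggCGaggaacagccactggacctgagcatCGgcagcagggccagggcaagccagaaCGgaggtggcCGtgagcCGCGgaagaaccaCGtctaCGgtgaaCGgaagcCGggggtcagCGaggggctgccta
The CpG-dense region around this window (chr4:154340690-154342183, 76 CpGs) was methylated at 88.5% to 100% in every library, and the CpG-dense region at the start of Prdm16 (chr4:154634474-154638687, 375 CpGs) at 0% to 11.0%. The methylated region lies where B230104I21Rik, annotated on the opposite strand (chr4:154336127-154349918), overlaps the 3′ part of Prdm16. The strand of transcription cannot be read from these data.

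The libraries held between 5218053 and 23065411 CpG calls, and those of Prdm16 between 1272 and 6365, which gave 95% Wilson intervals of ± 1.16 to 2.62 percentage points around one library's gene body. The 4 IFC libraries and 2 of the SO and 3 of the SOA libraries had under 10000000 calls, and all 3 IV libraries had over 10000000, so depth and group partly coincide. Per the methods of the study, 2 instrument models were used for sequencing, and the fits did not include the instrument. As checks of oocyte identity, the promoters of the imprinted genes Snrpn, Peg3, Kcnq1ot1 and Zrsr1, which oocytes methylate, averaged between 84.5% and 100% in every group with calls in every library, while the annotated starts of Mest and Plagl1 were at 25.8% and 1.92% over all libraries. These windows follow annotated gene ends, whereas the paper reported high methylation at the maternally methylated imprint regions it assessed. The 7 imprinted promoters looked at, Peg10 included, were together at 67.8% to 90.8% in 15 libraries and at 62.4% in IV1. This combined share also depends on how many calls each promoter had in a library. The promoters of 6 germ cell genes, which stay unmethylated in oocytes, were at 0% to 9.62% in 15 libraries and at 28.0% in IV1, so IV1 stood apart from its group. The paper suspected a slight contamination of IV1 by DNA of somatic cells and retained the pool. Contamination was not tested here. Means of IV without IV1 are given for the parts and flanks of both genes, the bins with the largest differences and the called genes, and the other IV means include it.

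Prdm16 was most methylated in oocytes of cultured follicles and least in those of adults. The gene body, taken as methylated calls over all calls, was at 58.9%, 56.8%, 56.8% and 46.1% in IFC1 to IFC4. It was at 50.2%, 48.3%, 44.2%, 45.7% and 45.0% in SO1 to SO5. In SOA1 to SOA4 it was at 40.1%, 41.9%, 34.9% and 33.3%, and in IV1 to IV3 at 40.1%, 33.6% and 37.2%. Every SO library was above every SOA library, whereas IFC4 lay within the SO range and the adult groups overlapped. The means were 54.6% ± 5.78 (SD, n = 4) in IFC, 46.7% ± 2.48 (n = 5) in SO, 37.5% ± 4.08 (n = 4) in SOA and, for IV, 37.0% ± 3.25 (n = 3). The differences and their standard errors from the limma fit across all 5849 genes were 7.98 ± 2.60 points for IFC minus SO, 9.12 ± 2.60 for SO minus SOA, 0.587 ± 2.96 for SOA minus IV and 17.1 ± 2.74 for IFC minus SOA. Because these same contrasts chose the gene, they are a description and no test is given. For scale, the IFC minus SOA difference ranked number 61 from the top among 5849 genes, and the within-group SD of Prdm16 (4.04 points) was close to the median of all genes (3.67). The SDs and the rank include counting error, which is larger in genes with fewer calls than Prdm16. The order of means, IFC above SO above both adult groups, was held by 17.5% of the 5849 genes. In 7.49% of them every IFC library was above every SOA library. The share with every SO library above every SOA library was not counted.

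The level of gene bodies as a whole did not move in this way. The mean over the 5849 gene bodies was 56.2% ± 1.67 in IFC, 55.6% ± 0.866 in SO, 55.6% ± 1.74 in SOA and, for IV, 54.6% ± 1.44 (SD over pools). Prdm16 was therefore near the average gene in 3 of 4 IFC libraries, at 0.0182 to 1.07 points above it, and stood at −14.0 to −20.9 points relative to it in the SOA and IV libraries. IFC4 was low in Prdm16 and also had the lowest mean over gene bodies of its group (53.9%). Among libraries with under 10000000 calls, Prdm16 differed by 5.42 points between IFC and SO and by 10.3 points between SO and SOA. Among those with over 10000000 it differed by 11.6 points between SO and SOA, where SOA was a single library. Without IFC4, IFC minus SO was 10.8 points, and no library left out changed the order IFC above SO above SOA. SOA minus IV was 2.13 points without IV1 and ran from −1.10 points without IV2 to that value over all libraries left out.

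**Figure D1:**
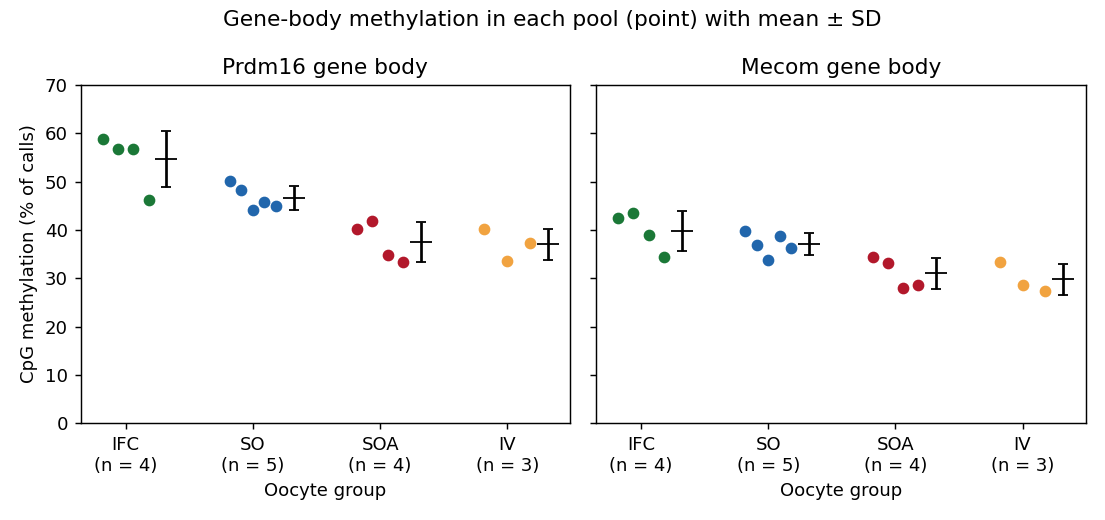
Gene-body methylation of Prdm16 and Mecom (percent of CpG calls, vertical axis) in each pool of the 4 groups (horizontal axis), with points for pools and black marks for the mean and SD. The Prdm16 points step down from IFC (mean 54.6%) through SO (46.7%) to SOA (37.5%) and IV (37.0%), and the Mecom points run from 39.8% in IFC to 29.8% in IV with more overlap.

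Mecom was less methylated than Prdm16 in every library. Its gene body was at 42.4%, 43.6%, 39.0% and 34.3% in IFC1 to IFC4 and at 39.8%, 36.8%, 33.8%, 38.7% and 36.2% in SO1 to SO5. It was at 34.3%, 33.2%, 28.0% and 28.6% in SOA1 to SOA4 and at 33.4%, 28.5% and 27.4% in IV1 to IV3. Prepubertal groups lay above adult groups, with IFC4 and SO3 reaching into the range of SOA1. The means were 39.8% ± 4.19 (SD, n = 4) in IFC, 37.1% ± 2.33 (n = 5) in SO, 31.0% ± 3.18 (n = 4) in SOA and, for IV, 29.8% ± 3.19 (n = 3).

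By limma, Mecom was higher in IFC than in SOA by 8.77 points (95% interval 3.85 to 13.7, adjusted p = 0.027), in a comparison that called 4.48% of all genes higher in IFC and 7.47% in either direction. No call was made for the other comparisons. IFC minus SO was 2.75 points (−1.92 to 7.42, adjusted p = 0.872), SO minus SOA 6.02 points (1.36 to 10.7, adjusted p = 0.197) and SOA minus IV 1.25 points (−4.06 to 6.56, adjusted p = 0.868). These comparisons called 1.16%, 3.81% and 0% of all genes, and 415 genes had an unadjusted p under 0.05 in SOA minus IV. The call for IFC minus SOA was lost without IFC1 (adjusted p = 0.0858), IFC2 (0.099), IFC3 (0.0514), SOA3 (0.086) or SOA4 (0.0806), among the libraries under 10000000 calls (7.97 points, adjusted p = 0.166) and on the logit scale (adjusted p = 0.0814). A two-sided exact permutation test on Mecom alone gave p = 0.0571 for IFC minus SOA and p = 0.0238 for SO minus SOA (0.114 and 0.0952 after Benjamini-Hochberg adjustment over the 4 comparisons). Among libraries under 10000000 calls, SO minus SOA was 6.45 points (adjusted p = 0.554) and among those over 10000000 7.61 points (adjusted p = 0.649), and without IV1 SOA minus IV was 3.07 points. With single libraries left out, IFC minus SO ran from 1.47 points (without IFC2) to 4.60 (without IFC4), and SOA minus IV from 0.0705 (without IV3) to 3.07.

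The paralogues also varied together from pool to pool. Over the 16 libraries, Pearson's r between their gene bodies was 0.937, and between their deviations from the group means it was 0.845. The points share libraries and therefore depth and overall level. Genes outside the pair reached as high a value, such as Snx10 with Prdm16 (0.943) and Myo1e with Mecom (0.964). No such background is given for the deviations. The deviation of IFC4 from its group mean was −8.54 points in Prdm16 and −5.55 points in Mecom.

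Each gene body was then cut at its midpoint into a 5′ part and a 3′ part. Within Prdm16, the 3′ part was the more methylated in all 16 libraries. It averaged 56.3% against 33.1% in the 5′ part, a difference of 23.2 points (range 15.6 to 30.7 over libraries; two-sided exact sign-flip permutation test, p = 3.05e-05, the smallest it can give, and 9.16e-05 adjusted over 6 such tests). All pools read the same stretches of DNA in the same cell type, so these 6 tests measure only agreement between pools. They do not set the genes apart from others, for which such differences were not computed. The step between groups was present in both parts. The 5′ part was at 45.8% ± 5.48 in IFC (n = 4), 34.6% ± 1.85 in SO (n = 5), 24.5% ± 3.00 in SOA (n = 4) and, for IV, 24.9% ± 2.93 (n = 3). In the 5′ part every IFC library, from 38.0% to 50.7%, was above every SO library, from 32.7% to 36.6%, and these were above every adult library, from 22.4% to 28.9%. How many genes separate in this way in their 5′ part was not counted, and these calls lie in the gene body that chose Prdm16. The 3′ part was at 64.2% ± 5.69, 58.7% ± 3.12, 50.3% ± 5.21 and 49.7% ± 4.28 in the same order of groups. Without IV1 the IV means were 23.2% and 48.1%.

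Exons of Prdm16 were more methylated than introns in all 16 libraries, at 79.7% against 42.4%, a difference of 37.2 points (exact sign-flip permutation test, p = 3.05e-05, adjusted p = 9.16e-05). Exons and introns were not compared at the same position. The last 3 bins of 10 kb counted in the gene body, which include introns and the coding exon window printed above, were at 90.2% to 96.8% in every group mean. Exon content and position therefore cannot be told apart. The exons, with 46 to 371 calls in a library, were at 83.2% ± 7.97 in IFC, 79.7% ± 4.09 in SO, 79.1% ± 11.9 in SOA and, for IV, 75.7% ± 4.22. The SOA libraries were far apart, at 91.1%, 72.1%, 87.0% and 66.1% in SOA1 to SOA4. Over the summed calls of a group, which give deeper libraries more weight, exons were at 84.5% (95% Wilson interval 80.8% to 87.5%), 78.5% (75.8% to 81.0%), 73.3% (69.6% to 76.7%) and 76.2% (73.3% to 78.8%) in the order IFC, SO, SOA and IV. The introns went from 53.0% ± 5.55 in IFC to 44.7% ± 2.45 in SO, 35.2% ± 3.54 in SOA and, for IV, 34.2% ± 3.17. Without IV1, IV was at 74.9% in exons and 32.6% in introns. The strands of Prdm16 differed by 0.469 points, with the plus strand higher in 10 of 16 libraries (exact sign-flip permutation test, adjusted p = 0.577).

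Mecom had another arrangement. Its 5′ part, at 37.2%, was above its 3′ part, at 31.8%, and the 3′ part was higher in 3 of 16 libraries (difference −5.48 points, exact sign-flip permutation test, adjusted p = 0.00375). The 3′ part, which contains the whole short form, was at 39.7% ± 2.84 in IFC, 35.4% ± 3.51 in SO, 24.0% ± 2.26 in SOA and, for IV, 25.5% ± 3.27. Every prepubertal library in that part, from 30.5% to 41.8%, was above every adult library, from 21.5% to 29.3%. The share of all genes with such a separation was not counted. The 5′ part was at 39.8% ± 5.44, 38.4% ± 3.27, 36.3% ± 4.06 and 33.2% ± 3.43 in the same order, with overlapping groups. Exons of Mecom, with 49 to 368 calls in a library, averaged 8.42 points above introns (higher in 13 of 16 libraries, exact sign-flip permutation test, adjusted p = 0.00293), and its strands differed by −0.800 points (adjusted p = 0.151). The body of the short form was at 50.8% ± 4.80 in IFC, 47.8% ± 4.23 in SO, 36.3% ± 6.70 in SOA and, for IV, 34.6% ± 4.47. The window from 1000 bases before to 500 after its start, with as few as 3 calls in a library, had 5 methylated calls of 320 (1.56%, 95% Wilson interval 0.669% to 3.60%), of which 3 were among the 52 calls of SOA. Without IV1, IV was at 31.3% in the 5′ part, 23.6% in the 3′ part and 32% in the body of the short form. The parts were compared between groups without a test, since the contrast was noticed in these values.

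**Figure D2:**
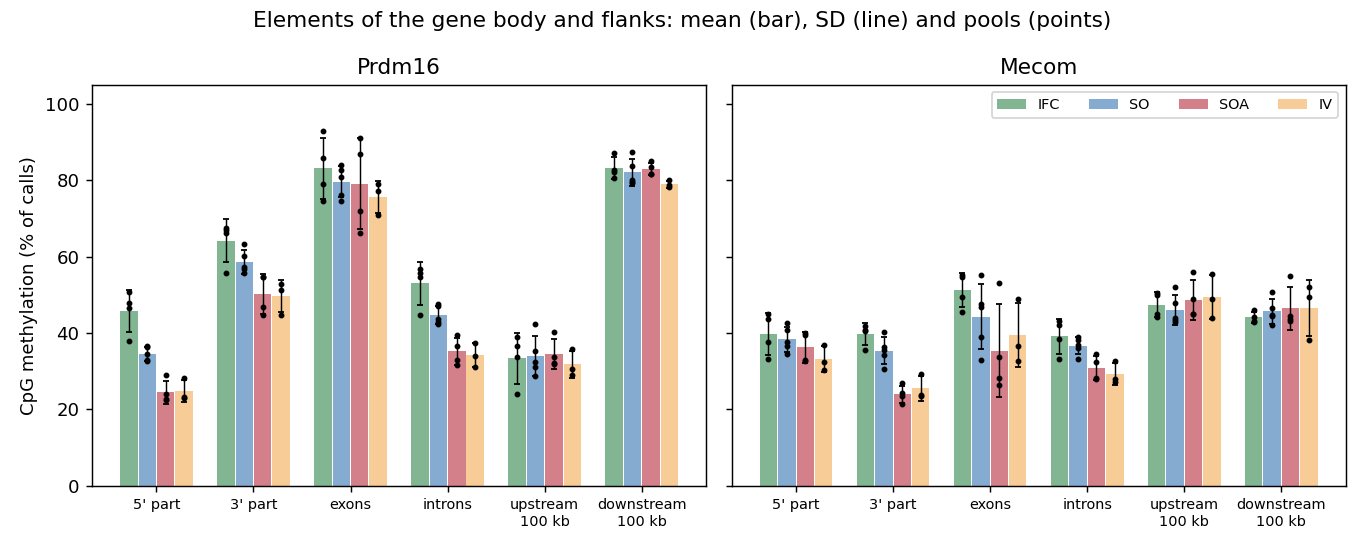
Methylation (percent of CpG calls, vertical axis) of the 5′ and 3′ parts, exons and introns of Prdm16 and Mecom and of the 100 kb on either side (horizontal axis), with bars for group means, lines for the SD and points for pools. The Prdm16 introns step down from 53.0% in IFC to 34.2% in IV while the means of its exons lie between 75.7% and 83.2%, and the Mecom 3′ part drops from 35.4% in SO to 24.0% in SOA. Exons and introns are not matched for position.

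In bins of 10 kb, the Prdm16 gene body (32 of the 263389 bins of the genome) had methylated bins near its 3′ end, a start of low methylation and, between them, mostly bins of intermediate level. The last 3 bins counted in the gene body, centred 292 to 312 kb from the start, were at 90.2% to 96.8% in every group mean, and the bin at the start at 11.1% to 14.9%. Bins were assigned by their centre. The bin at 322 kb, which holds the annotated 3′ end, was therefore counted with the flank. It was at 50.6% ± 4.92 in IFC, 43.9% ± 10.9 in SO, 48.9% ± 18.8 in SOA and, for IV, 40.1% ± 7.47. Of all 32 bins, 24 had a mean of 20% to 80%, 5 were under 20% and 3 over 80%. The bins under 20% include those at 81.9, 91.9 and 142 kb, inside the gene. The median IFC minus SOA difference was 23.3 points in the 24 intermediate bins, 7.0 in those under 20% and 0.800 in those over 80%. In 29 of 32 bins IFC was above SOA. The bin centred 212 kb from the start went the other way, at 41.5% ± 9.35 in IFC and 52.5% ± 4.30 in SOA.

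The largest differences of Prdm16 lay in intronic bins on both sides of its middle. The bin 132 kb from the start was at 38.0%, 56.2%, 54.5% and 36.1% in IFC1 to IFC4, at 26.4%, 23.6%, 20.7%, 25.9% and 16.7% in SO1 to SO5, and at 12.1%, 10.0%, 5.56% and 9.09% in SOA1 to SOA4. The 3 groups did not overlap, and IV, at 23.5%, 18.2% and 14.3%, fell across the SO range and under it. How many of all bins separate in this way was not counted. The bin 232 kb from the start averaged 69.3% ± 8.54 in IFC, 54.0% ± 8.02 in SO, 32.1% ± 4.59 in SOA and, for IV, 40.7% ± 4.72. The first bin beyond the start region, centred 11.9 kb inside the gene, averaged 87.5% ± 7.67 in IFC, 78.4% ± 7.02 in SO, 64.2% ± 6.92 in SOA and, for IV, 47.6% ± 8.10. Without IV1, IV was at 40.5% and 43.2% in these 2 bins.

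By a likelihood-ratio test on the counts, with an adjusted p under 0.05 over all bins and a difference of at least 20 points, 17 of the 32 Prdm16 bins were higher in IFC than in SOA (22.4 to 37.3 points, median 27.3) and 0 were lower. The test called 1.87% of all bins higher and 2.13% lower. For SO minus SOA 3 Prdm16 bins were higher (all bins, 1.17% higher) and for IFC minus SO 1 was higher (all bins, 0.406%). For SOA minus IV 0 of 32 bins were called (all bins, 0.469% in either direction). The rule that chose Prdm16 used these contrasts, so nothing is read from these counts. The likelihood-ratio test does not allow for spread between pools beyond counting error. The quasi-binomial F test, which does, called 0 of the 32 bins in each comparison. In either direction it called 0.097% of all bins in IFC minus SOA, 0.0113% in SO minus SOA, 0.000476% in IFC minus SO and 0% in SOA minus IV. Limma on the percentages of the pools called 6 Prdm16 bins in IFC minus SOA (all bins, 0.973%), 1 in SO minus SOA (all bins, 0.199%) and 0 in IFC minus SO (all bins, 0.0229%). The SO minus SOA count was 7 without SOA2, the IFC minus SO count was 5 without IFC4, 3 without SO3 or SO4 and 2 without IFC1, IFC2, SO1, SO2 or SO5, and the SOA minus IV count was 1 without IV1.

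**Figure D3:**
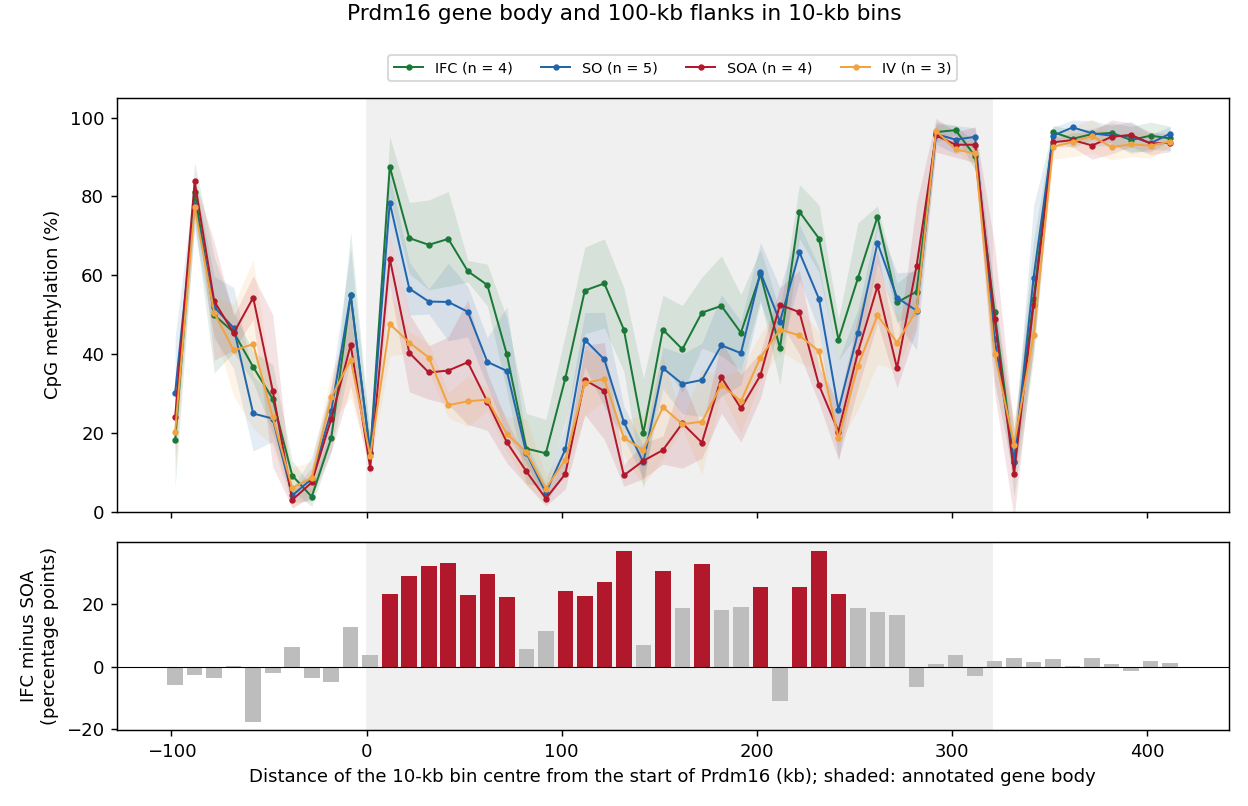
Methylation along Prdm16 and its 100-kb flanks in bins of 10 kb, against the distance of the bin centre from the gene start in kb, with lines for group means and shading for the SD (upper panel), and the IFC minus SOA difference of each bin in percentage points (lower panel, red where the likelihood-ratio test called the bin). All 17 called bins lie between 11.9 kb and 242 kb. The uncalled bins among them run from −11.1 points at 212 kb, where SOA is above IFC, to 19.1 points at 192 kb. The last 3 bins counted in the gene body are at 90.2% to 96.8% in every group.

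Mecom was patterned in blocks. The bins centred 143 to 213 kb from the annotated start of the gene were at 64.9% to 98.1% in the group means, and those from 33.0 to 123 kb, which hold the long-form start, were at 0.496% to 17.9%. Of the 59 bins with values in all groups (of 60), 19 were under 20%, 34 at 20% to 80% and 6 over 80%, and the median IFC minus SOA difference was 1.92, 17.6 and 3.55 points in these classes. The bin 243 kb from the start, the first called one beyond the methylated block, was at 51.5%, 96.3%, 70.7% and 59.5% in IFC1 to IFC4, at 32.9% to 49.2% with a median of 45.9% in SO, at 37.1%, 36.4%, 16.2% and 24.7% in SOA1 to SOA4, and at 33.3%, 31.2% and 27.6% in IV1 to IV3. Every IFC library was above every other library in this bin, and the share of all bins for which this holds was not counted.

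The likelihood-ratio test called 13 of 59 Mecom bins higher in IFC than in SOA (21.3 to 40.9 points, median 24.2) and 0 lower, beside 1.87% of all bins higher and 2.13% lower. All 13 lay between 243 and 563 kb from the annotated start, that is downstream of the methylated block. In all 13 the mean of IV was below that of IFC, which calling bins for a high IFC favours in advance. The share of all called bins for which this holds was not counted, so nothing is read from it. For SO minus SOA 3 bins were higher (all bins, 1.17%), for IFC minus SO 1 (all bins, 0.406%), and for SOA minus IV 0 were called (all bins, 0.469%). The quasi-binomial F test and limma on the percentages each called 0 Mecom bins in IFC minus SOA, where the 2 tests called 201 and 2017 of the 207301 bins. The count of 13 fell to 8 without SOA4 and to 4 with at least 20 calls in each library. The count of 3 for SO minus SOA was 6 without SOA1 or SOA2 and 1 without SO1, SOA3 or SOA4, and the count of 1 for IFC minus SO was 0 without IFC2.

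**Figure D4:**
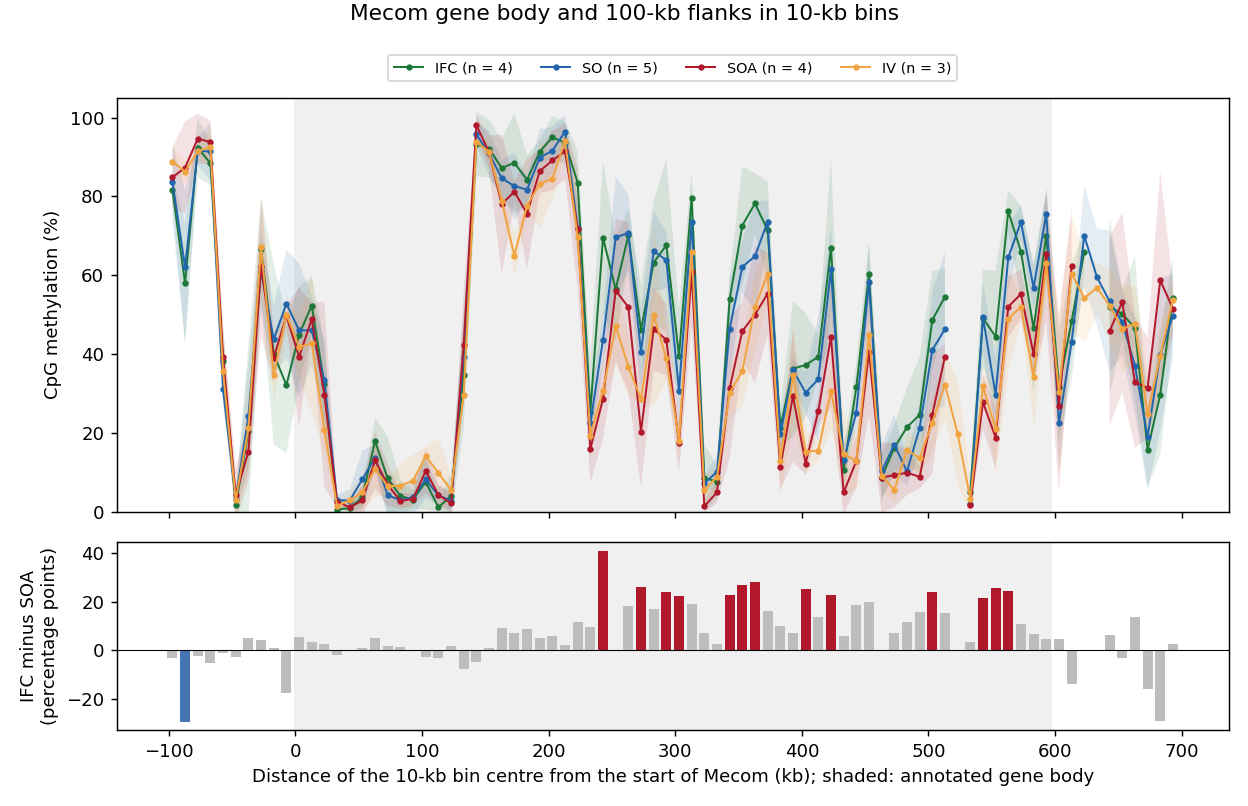
Methylation along Mecom and its 100-kb flanks in bins of 10 kb, against the distance of the bin centre from the gene start in kb, with lines for group means and shading for the SD (upper panel), and the IFC minus SOA difference of each bin in percentage points (lower panel, red for bins called higher and blue for bins called lower). All 13 bins called higher lie beyond the methylated block at 143 to 213 kb. The uncalled bins among them run from −0.00835 points at 463 kb (8.63% in IFC, 8.64% in SOA) to 19.9 points at 453 kb. The bin called lower lies in the upstream flank, at −87.0 kb.

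The order IFC above SO, and SO above both adult groups, was held by the group means of 29 of 59 Mecom bins (49.2%), against 11.8% of all bins and 14.1% of the bins whose mean was 30% to 60%. Among Prdm16 bins, where the order chose the gene, it was 23 of 32 (71.9%). Neighbouring bins of a gene share molecules and position, so these shares carry no test. In the flanks the order was held by 0 of 10 bins upstream of Prdm16, 3 of 10 downstream, 0 of 10 upstream of Mecom and 0 of 8 downstream.

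Taken as a whole, the flanks did not show the order of groups seen in the gene bodies. The 100 kb upstream of Prdm16 was at 33.4% ± 6.61 in IFC, 34.0% ± 5.29 in SO, 34.6% ± 3.94 in SOA and, for IV, 31.8% ± 3.52, and the 100 kb downstream at 83.2% ± 2.91, 82.1% ± 3.49, 83.0% ± 1.67 and 79.0% ± 0.917. The upstream means differed by less than their SDs, and in the downstream flank IV was the lowest group. Of the 20 flanking bins of Prdm16, 1 was called, in the upstream flank at −58.1 kb, and was lower in SO (24.9% ± 9.54) than in SOA (54.3% ± 5.55), where 0.899% of all bins were called lower. Upstream of Mecom the means were 47.4% ± 3.31, 46.0% ± 3.94, 48.7% ± 5.25 and 49.4% ± 5.81, and downstream 44.1% ± 1.44, 45.7% ± 3.24, 46.5% ± 5.59 and 46.6% ± 7.31. There 2 of the 10 upstream bins were called, each in 1 comparison. The bin at −6.99 kb was lower in IFC (32.1% ± 17.3) than in SO (52.8% ± 13.7; all bins, 0.771% lower), and the bin at −87.0 kb was lower in IFC (58.0% ± 15.2) than in SOA (87.3% ± 11.7; all bins, 2.13% lower). The differences of the called flanking bins of Prdm16 (−29.4 points) and Mecom (−20.7 and −29.3 points) fell short of a limit of 30 points. Without IV1, IV was at 29.8% upstream and 79.2% downstream of Prdm16 and at 46.3% and 45.2% for Mecom.

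Of the 9 protein-coding genes within 250 kb of Prdm16, 3 had enough calls to be tested and 0 of these were called by limma in any of the 4 comparisons, beside 1.16%, 3.81%, 0% and 7.47% of all genes in IFC minus SO, SO minus SOA, SOA minus IV and IFC minus SOA. Megf6 averaged 88.1% in IFC and 88.2% in SOA (adjusted p = 0.995), Wrap73 56.7% and 55.5% (adjusted p = 0.946), and Trp73, which encodes a relative of the tumour suppressor p53, 45.0% and 39.0% (adjusted p = 0.137). The others held fewer than 100 calls in at least one library and are given as values. In the order IFC, SO, SOA and IV, Arhgef16 averaged 75.0%, 72.7%, 70.8% and 65.7%. Mmel1, 233 kb upstream with as few as 71 calls in a library, averaged 53.3%, 40.7%, 21.4% and 23.4% in the same order. B230104I21Rik, inside Prdm16, was at 95.5% to 96.5%, and Actrt2 and Ttc34 upstream and Tprgl downstream averaged 0% to 5.26%, 28.9% to 38.9% and 39.4% to 47.6%. None of the 7 protein-coding genes near Mecom had enough calls. Their group means were 1.33% to 4.03% in Actrt3, 54.4% to 71.7% in Mynn, 26.6% to 38.8% in Lrrc31, 88.2% to 90.0% in Samd7 and 48.5% to 66.0% in Sec62. Lrrc34 and Lrriq4 had higher means in the adult groups, without a test. In the order IFC, SO, SOA and IV, Lrrc34 averaged 76.1% ± 6.49, 78.1% ± 7.32, 88.8% ± 3.58 and 88.9% ± 1.38, with as few as 31 calls in a library. Lrriq4, with as few as 53 calls, averaged 40.8% ± 7.49, 40.2% ± 13.2, 46.7% ± 7.11 and 51.6% ± 6.99.

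Of the 13 other PRDM family genes looked at, 7 could be tested and 1 was called, in SO minus SOA (3.81% of all genes called) and in IFC minus SOA (7.47%). Prdm11 was at 19.6%, 15.9%, 16.8% and 14.1% in IFC1 to IFC4, at 20.2%, 20.5%, 10.0%, 18.5% and 16.8% in SO1 to SO5, at 5.39%, 10.1%, 9.63% and 5.82% in SOA1 to SOA4, and at 11.1%, 7.87% and 5.50% in IV1 to IV3. Prdm11 was higher in both prepubertal groups than in SOA, by 9.50 points in SO (adjusted p = 0.0191) and by 8.87 points in IFC (adjusted p = 0.0242, limma), and IFC minus SO was −0.623 points (adjusted p = 0.991). The call in SO minus SOA was lost without SO1, SO2, SO4, SOA1 or SOA4, and that in IFC minus SOA without IFC1, IFC3, SOA1 or SOA4 (adjusted p of up to 0.0692 and 0.0818). Among libraries under 10000000 calls the differences of Prdm11 were 12 (limma adjusted p = 0.0619) and 8.24 points (adjusted p = 0.0527), and among those over 10000000 SO minus SOA was 9.31 points (adjusted p = 0.57). Without IV1, IV was at 6.69%. Prdm1, Prdm2, Prdm6, Prdm10 and Prdm15 were highly methylated, with group means of 68.0% to 87.3%. None of these 5 was called in any comparison. The median difference over the 7 genes was 1.41 points in IFC minus SOA, beside 0.632 over all genes.

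Partners of PRDM16 and MECOM were looked at in the lists of brown-fat partners and of TGF-beta and BMP signalling. Of 18 brown-fat partners 9 were tested and 0 were called in any comparison, where the shares of all genes were those given above, 0% to 7.47%. Among these, Ctbp2, a corepressor, averaged 74.7% in IFC and 75.2% in SOA, Ehmt1, an H3 lysine 9 methyltransferase, 85.7% and 89.8%, and Pparg, the master regulator of fat cells, 88.6% and 87.2%. Of 25 genes of TGF-beta and BMP signalling 17 were tested and 1 was called, in comparisons that called 1.16% (IFC minus SO), 3.81% (SO minus SOA) and 7.47% (IFC minus SOA) of all genes. This was Smad9, a signal transducer of BMP receptors, which moved the other way, at 15.6% ± 3.44 in IFC (n = 4), 28.1% ± 4.31 in SO (n = 5), 41.1% ± 4.03 in SOA (n = 4) and, for IV, 44.5% ± 3.47 (n = 3). Its differences by limma were −12.4 points for IFC minus SO (adjusted p = 0.02, lost without IFC3, IFC4, SO2 or SO3, at up to 0.0657), −13.0 for SO minus SOA (adjusted p = 0.00545) and −25.5 for IFC minus SOA (adjusted p = 9.62e-06). Among libraries under 10000000 calls IFC minus SO was −11.5 points (limma adjusted p = 0.184), and among those over 10000000, where SOA was a single library, SO minus SOA was −6.62 points (adjusted p = 0.899). Without IV1, IV was at 45.9% in Smad9. Smad3, the partner of both proteins, was not called (78.8% in IFC, 81.0% in SOA, adjusted p = 0.809).

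The genes whose gene body followed Prdm16 most closely over the 16 libraries lay on other chromosomes. They were Snx10 (Pearson's r = 0.943), Bbx (0.942), Dlgap2 (0.941), Drd3 (0.939) and Rad51b (0.939). Drd3, the D3 dopamine receptor, averaged 55.5%, 44.3%, 21.8% and 20.0% in the order IFC, SO, SOA and IV, and Snx10, a sorting nexin, 36.9%, 30.6%, 16.3% and 16.9%. Mecom ranked number 7 in likeness to Prdm16 among 5849 genes. For Mecom the closest were Myo1e, an unconventional myosin (r = 0.964), Dlgap2 (0.945), Prdm16 itself (0.937), Zbtb38 (0.933) and Fsip1 (0.933). Zbtb38, which encodes a zinc-finger protein that binds methylated DNA, averaged 25.2%, 22.0%, 5.72% and 7.39% in that order. These values of r rest on differences between groups and on levels that libraries share, and are a description.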

How the data were processed

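Each of the 16 libraries was a pool of oocytes. Per the labels and the study, the authors trimmed the reads with Trim Galore 0.4.4 and cutadapt 1.9.1, mapped them to GRCm38 with Bismark 0.19.0 and removed duplicates. The deposited tables list covered CpG positions with 2 counts, of methylated and of unmethylated reads, and the percent that follows from them. The authors did not normalize these counts. Both alleles of the hybrid were mapped to a C57BL/6J reference, so sites that differ in CBA/Ca can be miscalled. The sources do not tie pools to females, so p-values measure the spread between pools, which may be partly technical.

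A gene body's value was methylated calls over all calls between its GENCODE M21 ends (RefSeq for promoter sequences). Genes with at least 100 calls in every library were compared with limma 3.58.1 (R 4.3.3) over all groups, and 10-kb bins with at least 5 calls per library with a binomial likelihood-ratio test, a method that takes calls as independent. Reads carry no molecular identifiers. P-values were adjusted by Benjamini-Hochberg over all genes or bins. Calls needed an adjusted p under 0.05 and, for bins, 20 points. Exact tests were run in Python 3.11.15 with scipy 1.17.1. The fits were tested on simulated data. The 25 pairs of libraries within groups differed by 2.90 to 13.1 times the sampling variance per gene, so none was taken as a duplicate.

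The members and the gene lists were chosen with earlier results of these data known. Named genes were the members, called PRDM family genes, protein-coding genes within 250 kb, the called genes with the 2 largest differences per list and comparison, and the 5 genes most correlated with each member. Mmel1 and other uncalled genes are named as neighbours or examples, the latter chosen after their values were seen. The alternatives were other summaries of a gene body, tests, thresholds, bin edges, depth, scaling, depth classes, the replicate block and leaving out each library. A tested PRDM family gene and a list of blood stem cell partners are not reported here.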

Additional observations from a re-analysis of the deposited data

Results flagged for a closer look

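Of 42 combinations of a group with a gene body, its 5′ or 3′ part, exons, introns or flank that were checked for a single distant library, 4 stood out by Dixon's ratio, where chance alone gives about 1 in 20. In the IFC group, IFC4 was the low library of Prdm16 in the gene body (46.1% against 56.8% in the nearest other), the 3′ part (55.7% against 66.3%) and the introns (44.7% against 54.7%). These values come from overlapping calls. In the SOA group, SOA2 was high in the 100 kb downstream of Mecom (54.9% against 44.5%). Groups of 3, such as IV, were not checked.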

How the results depend on the processing

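Of 557 alternative values for 50 results, 483 were taken as unchanged. Tested values among these kept their direction and side of the threshold, and values with no test moved by less than the spread between pools. Counts of called bins or genes were allowed a tolerance. The Prdm16 count for IFC minus SOA, at 17 to 20 with single libraries left out, was taken as unchanged. Where a value moved, the cause was not tested. Prdm16 gene body: SOA minus IV was −3.64 points among libraries over 10000000 calls, where SOA was 1 library, assumed to vary like the others. The other alternatives for Prdm16 differed from the reported values by less than 1 SD. Mecom gene body: SO minus SOA passed when each sample's mean over gene bodies was subtracted (6.04 points, adjusted p = 0.0497; range of adjusted p over the limma alternatives 0.0497 to 0.649) and in the exact test before adjustment (6.02 points, p = 0.0238, or 0.0952 adjusted over the 4 comparisons). IFC minus SOA missed the threshold on the logit scale (8.77 points), in the exact test (8.77) and among libraries under 10000000 calls (7.97). SOA minus IV reversed among those over 10000000 calls (−1.16 points, adjusted p = 0.988). With single libraries left out, Mecom IFC minus SOA ranged from 7.50 to 10.6 points, and 5 of the 8 such fits lost the call.

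Called bins depended on the test. With a limit of 30 points, Prdm16 had 0, 0 and 6 called bins and Mecom 0, 0 and 1 in IFC minus SO, SO minus SOA and IFC minus SOA, by the quasi-binomial F test 0 in each, and by limma 0, 1 and 6 in Prdm16 and 0 in each for Mecom. IFC minus SO gave 2 Prdm16 bins with bins shifted by 5 kb, after thinning or below 10000000 calls. SO minus SOA gave 6 bins in either gene above 10000000 calls, and 0 in Mecom below it, after thinning or with at least 20 calls. IFC minus SOA gave 4 Mecom bins with at least 20 calls and 8 below 10000000 calls, and SOA minus IV gave 1 after thinning. Leaving out single libraries gave 1 to 5 Prdm16 bins in IFC minus SO, 2 to 7 in SO minus SOA and 0 to 1 in SOA minus IV, and 0 to 1, 1 to 6 and, for IFC minus SOA, 8 to 14 Mecom bins. It gave 0 to 1 called PRDM family genes in SO minus SOA and in IFC minus SOA. Over all genes, IFC minus SO gave 68 calls, but 40 on the logit scale, 39 without SO3 and 7 below 10000000 calls. Below that depth SO minus SOA gave 47 instead of 223 and IFC minus SOA 259 instead of 437, and above it SO minus SOA gave 14.

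Replicate numbers are shared by the groups. The deviations of same-numbered pools were only weakly correlated (r from −0.0496 to 0.129, 1 pair of 15 over 0.1). Whether same-numbered pools share more than a number was not tested. With the replicate block, Mecom IFC minus SOA was 8.77 points (adjusted p = 0.0128) and Prdm16 17.1, and 70, 193, 1 and 469 genes were called instead of 68, 223, 0 and 437. The calls of Prdm11, Smad9 and Mecom held, and a sample correlated best with its own number in 3 of 4, 3 of 4, 0 of 3 and 2 of 4 cases over the 4 comparisons. A bin was used from 5 calls in a library, which limits the precision of single bins.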

Other observations

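Calls on neighbouring CpGs of one strand, at most 50 bases apart, with 1 call each, agreed more often within a library than between libraries of the same group, where the calls come from different molecules. In Prdm16 they agreed in 86.8% of 2642 pairs within IFC libraries and in 69.8% of 1678 pairs between them. The values were 86.5% and 73.2% in SO, 86.9% and 75.2% in SOA and 86.1% and 70.4% in IV. In Mecom, agreement within libraries was 90.2%, 90.4%, 89.3% and 88.9% in the order IFC, SO, SOA and IV, and between libraries 77.4%, 78.7%, 80.3% and 75.2%. The share within libraries was thus nearly the same in every group, although the level of Prdm16 was not. Pairs within a library can come from 1 read, so calls within a library are not independent of each other.

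Across bins of Prdm16 the number of CpGs in a bin, from 99 to 450, had a Spearman correlation of −0.143 with the mean methylation of the bin, and in Mecom, with 48 to 275 CpGs, of −0.291. The bins lie beside each other, and these values are descriptions.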
